A study of Sus scrofa with 12 samples.

Results

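Imprinted growth genes are described here in pig testis: DLK1, PEG3, PEG10, CDKN1C, PLAGL1, MEST, NNAT, GRB10 and DIRAS3. They were chosen by name, as imprinted genes expressed in immature somatic tissue, so that a lower level with age lies within what they were chosen for. Each was found under its symbol, which gave 9 of the 21674 coding genes of the table. RNA was sequenced from testes of Hezuo pigs (HZ), a small plateau breed with early sexual maturity, and of Landrace pigs (LC). The boars were reared under the same conditions, and the testes were collected by castration at 30 or 120 days of age. Group Ha was HZ at 30 days, Hb was HZ at 120 days, La was LC at 30 days and Lb was LC at 120 days, with 3 boars in each group and libraries numbered Ha1 to Ha3 and so on. The comparisons of age ask how the testis differs between 30 and 120 days in each breed, and those of breed ask how HZ and LC differ at the same age. Coding genes summed to 22538417 to 23758931 estimated counts per library in Ha, 17165519 to 22707568 in Hb, 18523274 to 23563949 in La and 18998959 to 23253496 in Lb.

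An imprinted gene is expressed mainly from the copy inherited from the mother or mainly from the copy inherited from the father, according to DNA methylation marks set in the germ line. Imprinted genes often lie in clusters under a shared control region, and many of them act on fetal growth, on the placenta and on stem or progenitor cells. In the male germ line the marks are erased and set anew in the paternal pattern, while the somatic cells of the testis keep the pattern of both parents.

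The libraries of Hb differed among themselves in a way that bears on what follows. The 7 Leydig cell markers summed to 2180.0 FPKM, a level scaled by transcript length and library size, in Hb1, against 189 in Hb2 and 128 in Hb3. Over all coding genes Hb2 was the furthest from the others, with a chi-square per degree of freedom between libraries of 94.97 for Hb1 and Hb2, 59.73 for Hb2 and Hb3 and 41.74 for Hb1 and Hb3, where the other groups had 17.76 to 46.05. The change with age of the 9 genes in HZ is therefore also given without Hb1 and without Hb2. The same was done for the other imprinted genes, relatives, partners and neighbours that are named below as called with age in HZ. Among these, CCND1 and CDK2 lost the call without Hb1 and 0 lost it without Hb2.

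The imprinted growth genes that passed the test with age were all lower at 120 days than at 30 days. In HZ, 5 of the 9 genes passed the test, all lower at 120 days: PEG10, PLAGL1, NNAT, GRB10 and DIRAS3. In LC, 4 of the 9 passed, again all lower: DLK1, PLAGL1, NNAT and GRB10. A gene passed the test, or was called, when edgeR's quasi-likelihood test gave a Benjamini-Hochberg adjusted p under 0.05 over all coding genes tested and the log2 fold change was beyond 1 in size. Fold changes are 120 days over 30 days, or LC over HZ. Of 16548 coding genes tested in HZ, 51.4% were called in either direction and 23.2% were called lower at 120 days. In LC the shares were 47.6% of 16637 in either direction and 20.1% lower. The number of imprinted growth genes called was thus near the share among all coding genes. Calls that were all lower were also found in marker lists of somatic cells given further on, and the direction was not tested against other genes. The DIRAS3 call in HZ was lost in most alternatives, PEG3 and CDKN1C passed in neither breed, and MEST was higher at 120 days in HZ by less than the size threshold. Their median log2 fold change was -1.3002 in HZ and -1.07 in LC, beside -0.02 and 0.01 over all genes tested. The CPM values of the age groups did not overlap for 8 of the 9 genes in HZ and for 6 of the 9 in LC, where 76.2% of all genes tested in HZ and 75.9% in LC did not overlap either, so these counts are near the background. In a bulk sample, fewer cells of a type and less RNA per cell cannot be told apart, and this holds for every age difference given here.

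The direction of calls over all coding genes depended on the scaling. Among genes called in HZ, 45.2% were lower at 120 days with the TMM scaling used throughout, and 56.3% with upper-quartile scaling. In LC the share was 42.3% with TMM and 52.9% with the upper quartile. Upper-quartile scaling moved the median log2 fold change of all genes to -0.34 in HZ and -0.25 in LC. On deposited FPKM, tested with limma after adding 1 or 0.1, the median was -0.28 or -0.47 in HZ and -0.16 or -0.27 in LC, and 57.7% or 61.5% of HZ calls were lower. In LC, 47.8% of calls were lower with 1 added and 53.9% with 0.1 added. Upper-quartile scaling called 5 of the imprinted growth genes in each breed, all of them lower.

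**Figure D1:**
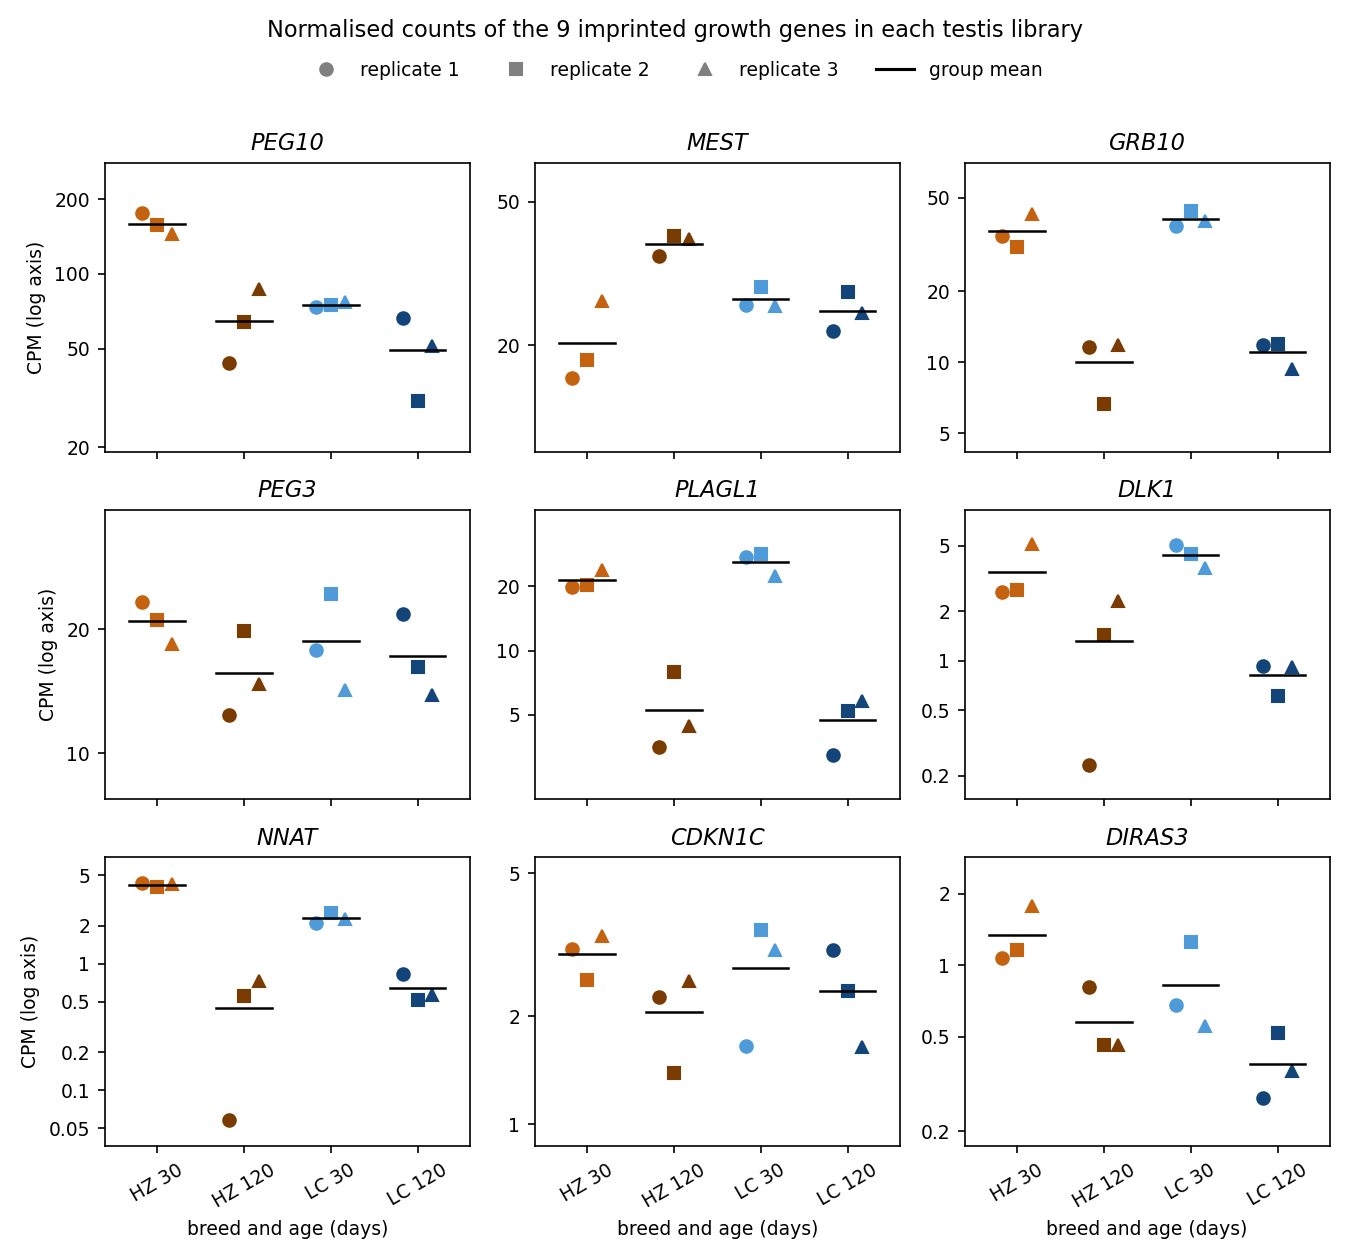
Expression on the counts-per-million scale (CPM, log axis, scaled by TMM) of the 9 genes in each of the 12 testis libraries, by breed (HZ, LC) and age in days; symbols stand for replicates and black lines for group means. PLAGL1, NNAT and GRB10 were lower in every 120-day library than in every 30-day library of both breeds, while MEST was higher at 120 days in HZ, and PEG3 overlapped between ages in both.

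Among the genes that restrain growth signals, GRB10 encodes an adaptor that binds the insulin and IGF1 receptors and dampens their signal. It lies on chromosome 9 at 136580363 to 136742552 of Sscrofa11.1, the pig assembly used for all positions here, and has gene ID 100188977. GRB10 gave 34.5, 30.9 and 42.7 CPM (the counts-per-million scale, after TMM scaling over the 12 libraries) in Ha1, Ha2 and Ha3, and 11.6, 6.69 and 11.8 CPM in Hb1, Hb2 and Hb3. In LC it gave 38.1, 44.0 and 39.9 CPM in La and 11.9, 12.0 and 9.39 CPM in Lb. Every 30-day library was above every 120-day library, and the breeds overlapped at both ages. GRB10 fell by 1.85 on the log2 scale in HZ (standard error 0.27, edgeR adjusted p = 0.000648) and by 1.86 in LC (standard error 0.15, edgeR adjusted p = 9.76e-06). Both calls held in all 15 alternatives of each comparison, and the HZ fold change was -1.96 without Hb1 and -1.65 without Hb2.

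CDKN1C encodes an inhibitor of cyclin-dependent kinases that holds cells out of the cycle. It lies on chromosome 2 at 2019391 to 2022092 (gene ID 110259225). CDKN1C was low throughout, with 3.07, 2.53 and 3.34 CPM in Ha and 2.26, 1.39 and 2.51 CPM in Hb. The LC libraries held 1.66, 3.47 and 3.06 CPM in La and 3.05, 2.35 and 1.64 CPM in Lb. The HZ age groups were apart by a margin smaller than the spread within either, and the LC age groups overlapped. Neither age difference passed the test, with log2 fold changes of -0.54 in HZ (standard error 0.35, edgeR adjusted p = 0.199) and -0.20 in LC (standard error 0.38, edgeR adjusted p = 0.655). The HZ value was -0.61 without Hb1 and -0.35 without Hb2, and ran to -0.86 with upper-quartile scaling and -0.96 by limma on log2(FPKM + 0.1) (adjusted p = 0.0104, range over alternatives 0.00549 to 0.381). In FPKM the HZ ages were further apart, at 1.14 to 1.49 in Ha and 0.48 to 0.79 in Hb.

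DIRAS3 encodes a small GTPase of the Ras family that inhibits growth. It lies on chromosome 6 at 144576342 to 144578820 (gene ID 733668) and was low in CPM, with 6 to 46 counts per library. Its HZ values were 1.07, 1.17 and 1.79 CPM in Ha and 0.812, 0.464 and 0.462 CPM in Hb. Its LC values were 0.679, 1.26 and 0.556 CPM in La and 0.278, 0.518 and 0.359 CPM in Lb. The age groups did not overlap in either breed, although La3 was close to Lb2. DIRAS3 passed the test in HZ, where it fell by 1.21 on the log2 scale (standard error 0.45, edgeR adjusted p = 0.0430). This call was lost in 10 of 15 alternatives, over which the adjusted p ran from 0.00290 to 0.155. Among the libraries, it was lost without Ha1 (edgeR adjusted p = 0.0688), Ha2 (0.0842), Ha3 (0.155, log2 fold change -0.95), Hb2 (0.0938, log2 fold change -1.09) or Hb3 (0.117). DESeq2 gave an adjusted p of 0.0930, and without Hb1 the call held (-1.52, edgeR adjusted p = 0.0347). In LC the log2 fold change was -1.07 (standard error 0.49, edgeR adjusted p = 0.0792), which passed with upper-quartile scaling alone (-1.33, adjusted p = 0.0376, range over alternatives 0.0163 to 0.315).

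Of the transcription factors, PLAGL1 encodes a zinc finger protein that restrains proliferation and acts on other imprinted genes. It lies on chromosome 1 at 21299830 to 21371070 (gene ID 733596). PLAGL1 gave 19.8, 20.2 and 23.9 CPM in Ha and 3.54, 7.94 and 4.42 CPM in Hb. In LC, PLAGL1 gave 27.3, 28.4 and 22.5 CPM in La and 3.24, 5.23 and 5.80 CPM in Lb. The lowest 30-day library was well above the highest 120-day library, which was Hb2. PLAGL1 fell by 2.002 on the log2 scale in HZ (standard error 0.31, edgeR adjusted p = 0.000954) and by 2.44 in LC (standard error 0.25, edgeR adjusted p = 4.28e-05). Both calls held in all 15 alternatives, and the HZ fold change was -1.77 without Hb1 and -2.45 without Hb2.

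PEG3 encodes a large zinc finger protein expressed from the paternal copy, with roles in cell survival and maternal behaviour. PEG3 is on chromosome 6 at 61281931 to 61307788 (gene ID 100522552). PEG3 gave 23.4, 21.1 and 18.4 CPM in Ha and 12.4, 19.9 and 14.8 CPM in Hb. In LC, PEG3 gave 17.8, 24.4 and 14.2 CPM in La and 21.7, 16.2 and 13.9 CPM in Lb. In CPM all 4 groups overlapped, while in FPKM the Ha libraries (1.61 to 2.05) were above the Hb libraries (0.72 to 1.34). The log2 fold change with age was -0.42 in HZ (standard error 0.21, edgeR adjusted p = 0.115) and -0.11 in LC (standard error 0.24, edgeR adjusted p = 0.711). The HZ value was -0.27 without Hb1 and -0.65 without Hb2 (edgeR adjusted p = 0.0237, range over alternatives 0.0140 to 0.298), -0.72 with upper-quartile scaling and -0.87 by limma on log2(FPKM + 0.1), and it did not pass in any alternative. The LC value changed sign without La2 (0.11) or without Lb3 (0.03).

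DLK1, a transmembrane protein related to the Notch ligands, is made by progenitor cells of many tissues. Its gene lies on chromosome 7 at 121565844 to 121577493 (gene ID 497066). DLK1 gave 2.61, 2.69 and 5.16 CPM in Ha and 0.232, 1.44 and 2.31 CPM in Hb. In LC, DLK1 gave 5.05, 4.47 and 3.66 CPM in La and 0.925, 0.612 and 0.924 CPM in Lb. The LC ages were far apart, whereas in HZ the highest 120-day library, Hb3, came close to the lowest 30-day library, Ha1. The spread in Hb came from counts of 4, 31 and 35, the lowest in Hb1. DLK1 fell by 2.40 on the log2 scale in LC (standard error 0.32, edgeR adjusted p = 0.000211), a call that held in all 15 alternatives. In HZ the log2 fold change was -1.40 (standard error 0.70) and did not pass (edgeR adjusted p = 0.112). It was -0.90 without Hb1 (edgeR adjusted p = 0.139) and -1.48 without Hb2 (edgeR adjusted p = 0.187). It passed in a fit of all 12 libraries (-1.40, edgeR adjusted p = 0.0450) and by limma on log2(FPKM + 0.1) (-1.92, adjusted p = 0.0243), and the adjusted p over all alternatives ran from 0.0166 to 0.304. The interaction of breed and age, which tests whether the change with age differed between breeds, was -1.01 for DLK1 (edgeR adjusted p = 0.482), so a difference between the breeds in this change was not shown.

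NNAT encodes neuronatin, a small protein of the endoplasmic reticulum membrane that acts on calcium handling. Its position is chromosome 17 at 40625990 to 40629523 (gene ID 449004), inside the gene BLCAP. NNAT gave 4.34, 4.06 and 4.23 CPM in Ha and 0.058, 0.557 and 0.725 CPM in Hb, where Hb1 held 1 count. In LC, NNAT gave 2.08, 2.51 and 2.27 CPM in La and 0.833, 0.518 and 0.565 CPM in Lb. The 30-day libraries were tightly grouped within each breed and stood above all 120-day libraries. NNAT fell by 3.23 on the log2 scale in HZ (standard error 0.64, edgeR adjusted p = 0.00314), and the fold change was -2.71 without Hb1 and -3.46 without Hb2. It fell by 1.81 in LC (standard error 0.35, edgeR adjusted p = 0.00169). The LC call was lost by limma on log2(FPKM + 1), which gave a fold change of -0.79 on that scale. The interaction for NNAT was 1.40 (standard error 0.73, edgeR adjusted p = 0.268). BLCAP itself was at 79.8, 63.6, 65.4 and 58.5 mean CPM in Ha, Hb, La and Lb. The libraries were strand-specific, but whether strand was used in counting is not given in the sources used here, and without it reads of overlapping genes cannot be told apart.

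MEST encodes an enzyme-like protein of the alpha/beta hydrolase fold and is expressed from the paternal copy. The gene is on chromosome 18 at 18319126 to 18358655 (gene ID 100147710) and overlaps COPG2, so the same limit applies to its counts. MEST gave 16.2, 18.2 and 26.5 CPM in Ha and 35.4, 40.1 and 39.4 CPM in Hb. In LC, MEST gave 25.8, 28.9 and 25.7 CPM in La and 22.0, 28.1 and 24.5 CPM in Lb. In CPM all HZ libraries at 120 days were above all other libraries, and the LC ages overlapped. In FPKM Hb1 (11.33) was below Ha3 (12.11), so the HZ ages overlapped on that scale. With age the log2 fold change was 0.91 in HZ (standard error 0.21, edgeR adjusted p = 0.00647), under the size the test required, and -0.09 in LC (standard error 0.14, edgeR adjusted p = 0.577). Without Ha3, the highest of its group, the HZ fold change was 1.15 and passed (edgeR adjusted p = 0.00211, range over alternatives 0.000146 to 0.0486), and it was 0.97 without Hb1 and 0.85 without Hb2. The HZ value was 0.60 with upper-quartile scaling and 0.48 or 0.52 by limma on FPKM with 1 or 0.1 added. COPG2 was at 207, 217, 249 and 224 mean CPM in Ha, Hb, La and Lb.

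PEG10, derived from a retrotransposon and needed for the placenta, is expressed from the paternal copy. The gene is on chromosome 9 at 74474121 to 74486983 (gene ID 654416). PEG10 gave 175, 158 and 144 CPM in Ha and 43.5, 63.9 and 86.7 CPM in Hb. In LC, PEG10 gave 73.3, 74.9 and 76.8 CPM in La and 66.4, 30.7 and 51.3 CPM in Lb. The Ha libraries were above all other libraries, the La libraries were above the Lb libraries, and Hb overlapped with both. PEG10 fell by 1.3002 on the log2 scale in HZ (standard error 0.24, edgeR adjusted p = 0.00226), a call that held in all 15 alternatives, with -1.08 without Hb1 and -1.31 without Hb2. In LC the log2 fold change was -0.58 (standard error 0.24, edgeR adjusted p = 0.0600), and it did not pass in any alternative. It ran from -0.34 without Lb2 to -0.95 by limma on log2(FPKM + 0.1), and was -0.85 with upper-quartile scaling (edgeR adjusted p = 0.0107, range over alternatives 0.00887 to 0.125). The interaction of breed and age for PEG10 was 0.70 (standard error 0.38, edgeR adjusted p = 0.283).

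**Figure D2:**
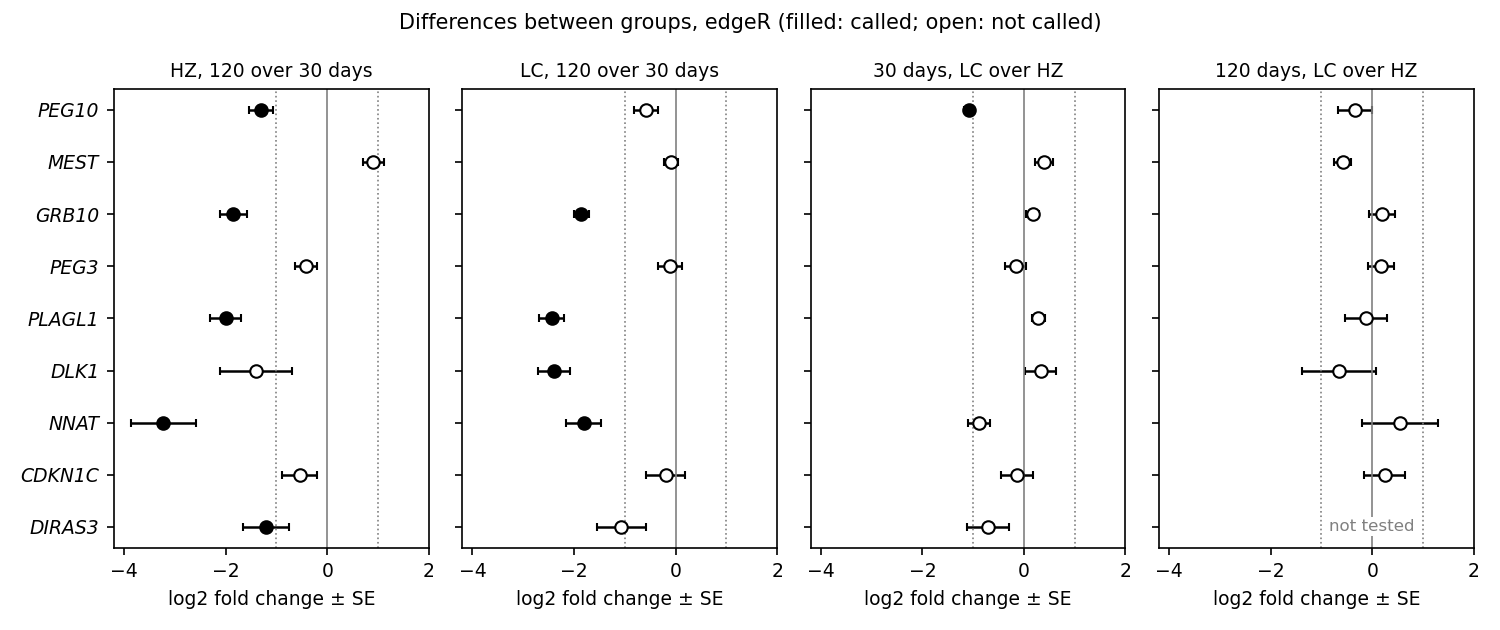
Log2 fold change of the 9 genes in each comparison, with points for the edgeR estimate, bars for 1 standard error, filled points for genes that passed the test and dotted lines at the size threshold. PLAGL1, NNAT and GRB10 passed in both comparisons of age, and PEG10 passed between the breeds at 30 days.

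Compared per length, as mean FPKM, the order of the 9 genes changed with age. In Ha the highest level was that of PEG10, at 20.6 ± 2.04 FPKM (SD, n = 3), followed by MEST at 9.44 ± 2.37 and GRB10 at 9.16 ± 1.43, which overlapped each other. PLAGL1 (4.14 FPKM) and NNAT (2.56 FPKM) came next, each apart from its neighbours, and PEG3, DLK1 and CDKN1C (1.84, 1.69 and 1.33 FPKM) overlapped in that order, above DIRAS3 at 0.657 FPKM. In La the 3 highest levels, MEST at 11.5 ± 1.28 FPKM, GRB10 at 10.1 ± 0.564 and PEG10 at 9.47 ± 0.321, overlapped in that order. PLAGL1 at 5.26 FPKM stood below these, and DLK1, PEG3, CDKN1C and NNAT (2.35, 1.61, 1.19 and 1.11 FPKM) overlapped in sequence above DIRAS3 at 0.397 FPKM. At 120 days MEST led in both breeds, with 13.4 ± 1.90 FPKM in Hb and 9.25 ± 1.3 in Lb, apart from PEG10 at 5.99 ± 2.09 and 5.10 ± 1.84. GRB10 followed at 1.85 FPKM in Hb and 2.39 FPKM in Lb. The other 6 genes were at 0.173 to 0.99 FPKM in Hb and 0.147 to 1.2 FPKM in Lb, with NNAT lowest in Hb and DIRAS3 lowest in Lb. The summed FPKM of the 9 genes was 51.4 ± 3.69 in Ha, 24.5 ± 4.36 in Hb, 42.9 ± 3.08 in La and 20.3 ± 1.002 in Lb.

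Between the breeds at 30 days, PEG10 was the 1 gene of the 9 that passed the test. It fell by 1.09 on the log2 scale from Ha to La (standard error 0.09, edgeR adjusted p = 0.000627), lower in 3 of 3 La libraries than in any Ha library, and the call held in all 15 alternatives. This call and the age call of PEG10 in HZ share the same high Ha libraries. Mean CPM of PEG10 was 159.2 in Ha, 64.7 in Hb, 74.98 in La and 49.47 in Lb. Of 15648 coding genes tested, 7.62% were called in either direction and 4.01% were called lower in La. NNAT was also apart between the breeds, with a log2 difference of -0.88 (standard error 0.21, edgeR adjusted p = 0.0223) that was under the size threshold. NNAT passed by limma on log2(FPKM + 0.1), at -1.12 (adjusted p = 0.00656, range over alternatives 0.00656 to 0.275). The remaining 7 genes overlapped between Ha and La, and 41.8% of all genes tested did not overlap. The median log2 difference of the 9 was -0.13, beside 0.00 over all genes.

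At 120 days, 0 of the 8 genes tested were called between the breeds by edgeR. DIRAS3 was too low in Hb and Lb to be tested. At an unadjusted p under 0.05 the count was 1, MEST, and 25.5% of all 16311 coding genes tested reached that level. DESeq2 and limma also called 0, as did all 15 alternatives. Among all genes, 3.85% were called, 31.2% of them lower in Lb, against 104 of 513 and 167 of 834 calls by limma on FPKM with 1 and 0.1 added, the latter moving the median of all genes to 0.12. The number of all genes called, 628 by edgeR, was 97 without Lb2, 154 with the replicate block and 1258 in the fit of 12 libraries. MEST was lower in 3 of 3 Lb libraries than in any Hb library, with a log2 difference of -0.58 (standard error 0.17, edgeR adjusted p = 0.0790), which was -0.65 without Hb1 and -0.52 without Hb2 and had an adjusted p from 0.0183 to 0.210 over the alternatives. The other tested genes overlapped between Hb and Lb, and 32.3% of all genes tested did not.

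The change with age differed between the breeds by the interaction test for MEST alone among the 9 genes. The interaction was -1.02 on the log2 scale (standard error 0.25, edgeR adjusted p = 0.0350), meaning that the LC change was lower than the HZ change, and 5.14% of 17332 coding genes tested were called. The value was near the size threshold and the call was lost in 10 of 18 alternatives, over which it ran from -1.22 to -0.83 and the adjusted p from 0.00205 to 0.103. With upper-quartile scaling the interaction of MEST was -0.96. It was -0.83 without Ha1, -0.94 without Ha2, -0.98 without Hb2, -0.96 without Hb3, -1.05 without La1, -0.92 without La2, -1.001 without La3, -0.93 without Lb1 and -0.99 without Lb3, and in none of these fits was MEST called. Without Hb1 it was -1.04, and MEST was called. For DIRAS3, called with age in HZ and not in LC, the interaction was 0.12 (standard error 0.69, edgeR adjusted p = 0.950). Cell type markers, introduced further on, also moved in this test. Called higher were 5 of 10 stromal, 2 of 11 spermatogonial, 1 of 5 endothelial and 1 of 5 macrophage markers. Called lower were 2 of 10 spermatid markers. Medians were 1.49 for stromal and -1.42 for spermatid markers. Of the spermatocyte, Sertoli and Leydig markers 0 were called. The part of these markers in the interaction of MEST was not tested.

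Other genes of the same imprinted domains were looked at beside their neighbours. SGCE, which lies 217 bp from PEG10 and encodes a sarcoglycan, was at 20.8, 8.88, 23.4 and 11.6 mean CPM in Ha, Hb, La and Lb. SGCE fell by 1.22 on the log2 scale in HZ (standard error 0.21, edgeR adjusted p = 0.00140) and had a log2 fold change of -0.99 in LC (edgeR adjusted p = 0.000650), just under the size threshold, with an interaction of 0.21 (edgeR adjusted p = 0.650). Unlike PEG10, SGCE overlapped between the breeds at 30 days. In the domain of CDKN1C, the transporter gene SLC22A18, at 10278 bp, was at 3.82, 0.523, 0.262 and 0.492 mean CPM in Ha, Hb, La and Lb, so that only the Ha libraries were high. SLC22A18 fell by 2.86 on the log2 scale with age in HZ (edgeR adjusted p = 0.000642) and was lower in La than in Ha by a log2 difference of -3.84 (edgeR adjusted p = 0.00301). Both calls restate the high level in Ha, and SLC22A18 was too low in La and Lb to be tested with age in LC. The potassium channel gene KCNQ1 was far higher in CPM, at 632, 87.3, 593 and 204 in the same order. KCNQ1 fell by 2.86 on the log2 scale in HZ (edgeR adjusted p = 2.37e-05) and by 1.53 in LC (edgeR adjusted p = 9.43e-05). KCNQ1 was also higher in Lb than in Hb, by 1.26 on the log2 scale (edgeR adjusted p = 0.0311). That call was lost without Hb1 (1.25), Hb3 (1.09), Lb1 (1.27), Lb2 (1.09) or Lb3 (1.42), where the adjusted p reached up to 0.107 over all alternatives. PHLDA2, of the same domain, was low, at 0.184, 0.612, 0.127 and 0.983 mean CPM. Its means were higher at 120 days in both breeds, but the gene was not tested with age.

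Beside DLK1, the coding genes RTL1 and DIO3 were near the detection floor, RTL1 at 0.183, 0.015, 0.289 and 0.017 mean CPM and DIO3 at 0.26, 0.275, 0.444 and 0.050 mean CPM in Ha, Hb, La and Lb. The long noncoding RNA (lncRNA) of that domain, MEG3, lies on chromosome 7 at 121656253 to 121660495 and is expressed from the maternal copy, where DLK1 is expressed from the paternal copy. The lncRNA table summed to 502340 to 633664 estimated counts per library in Ha, 540920 to 767783 in Hb, 496269 to 595622 in La and 639036 to 702851 in Lb. MEG3 had 52, 58 and 55 counts in Ha1, Ha2 and Ha3 and 9, 9 and 3 in Hb1, Hb2 and Hb3. In LC, MEG3 had 33, 39 and 19 counts in La and 12, 4 and 11 in Lb. All 30-day libraries were above all 120-day libraries of both breeds. MEG3 fell by 3.15 on the log2 scale in HZ (standard error 0.47, edgeR adjusted p = 0.00143) and by 2.16 in LC (standard error 0.54, edgeR adjusted p = 0.00821), and both calls held in all 9 alternatives. Whether the change of MEG3 differed between the breeds was not tested.

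The lncRNA table held 3 transcripts within 10 kb of an imprinted growth gene. In HZ, 0 of the 2 tested were called with age by edgeR, and DESeq2 also called 0. At an unadjusted p under 0.05 there was 1, MSTRG.22766.1. In LC, 1 of 3 was called, where 56.2% of 2909 lncRNAs tested in HZ and 61.1% of 2988 in LC were called. MSTRG.22766.1, assembled by the authors, 2842 bp from NNAT on chromosome 17 at 40606861 to 40623148, lies inside BLCAP, so the limit on overlapping genes applies to its counts. It was at 716, 385, 690.0 and 411 mean CPM of lncRNA counts in Ha, Hb, La and Lb. Its log2 fold change in HZ was -0.93 (edgeR adjusted p = 0.0178), and it passed without Ha3 (-1.01) or without Hb2 (-1.03). With library sizes of the coding table it was -0.25 (edgeR adjusted p = 0.433, range over alternatives 0.0217 to 0.433). LOC110261211, 5321 bp from DIRAS3 on chromosome 6 at 144558280 to 144571021, had 1 to 25 counts per library. It fell by 1.83 on the log2 scale in LC (standard error 0.54, edgeR adjusted p = 0.0178). This call was lost by DESeq2 (-1.70, adjusted p = 0.0774), with library sizes of the coding table (-1.29) and with the replicate block (-1.76). It was also lost without La1 (-1.44), Lb1 (-1.70) or Lb2 (-1.76), and the adjusted p of the alternatives that lost it reached 0.108. LOC110257546, which overlaps MEST on chromosome 18 at 18311628 to 18324124, was at 40.3, 24.8, 52.6 and 29.5 mean CPM and was not called.

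Over a wider list of imprinted genes, 24 of 25 were found in the table, and USP29 was not analysed here. In HZ, 19 were tested, of which 1 was called higher and 7 lower at 120 days, with a median log2 fold change of -0.50. In LC, 2 were called higher and 6 lower of 19, with a median of -0.33. Over all coding genes tested, 51.4% were called in HZ and 47.6% in LC, and 23.2% and 20.1% were called lower. IGF2, the fetal growth factor, was at 55.3, 17.9, 113.9 and 36.3 mean CPM in Ha, Hb, La and Lb, and fell by 1.63 on the log2 scale in HZ (edgeR adjusted p = 0.00383) and by 1.64 in LC (edgeR adjusted p = 2.64e-05). MAGEL2, a regulator of protein ubiquitination, fell by 2.58 in HZ (edgeR adjusted p = 0.000521) and by 3.14 in LC (edgeR adjusted p = 0.00655) on the log2 scale. PPP1R9A, next to PEG10 on its other side and encoding a protein that binds actin and protein phosphatase, rose instead, with log2 fold changes of 1.86 in HZ (edgeR adjusted p = 9.76e-05) and 1.35 in LC (edgeR adjusted p = 0.000201), the LC call being lost by limma on log2(FPKM + 1) (0.95). L3MBTL1, which encodes a chromatin protein, rose by 1.36 in LC (edgeR adjusted p = 0.00330), a call lost by limma on FPKM with 1 (0.20) or 0.1 (0.72) added. Its interaction was 1.47 (edgeR adjusted p = 0.0822). The amino acid transporter gene SLC38A4 passed in LC at -2.40 (edgeR adjusted p = 0.0318), but its mean fell to 0.118 CPM in Lb. The SLC38A4 call was lost in 10 of 15 alternatives, among them those without La1 (-2.45), La2 (-2.21), La3 (-2.53), Lb1 (-2.01) or Lb2 (-1.83), with adjusted p from 0.00374 to 0.0996. Between the breeds at 30 days, 2 were called higher in La, IGF2 and SLC38A4, and 2 lower, L3MBTL1 and SLC22A18, of 21 tested. Of all coding genes tested in that comparison 7.62% were called. The 30-day call of IGF2 (1.04) was lost in 4 of 15 alternatives, among them those without Ha1 (0.997), La2 (0.987) or La3 (0.993). That of L3MBTL1 (-1.30) was lost in 8, among them those without Ha1 (-1.02), Ha2 (-1.24), La1 (-1.13), La2 (-1.31) or La3 (-1.40). That of SLC38A4 (1.58) was lost in 12, on leaving out any library: Ha1 (1.52), Ha2 (1.56), Ha3 (1.66), La1 (1.64), La2 (1.40) or La3 (1.72). At 120 days 1, KCNQ1, was called higher in Lb of 20 tested, where 3.85% of all coding genes tested were called.

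The nearest coding genes outside these lists did not share a direction. Next to PLAGL1, 1945 bp away, ZC2HC1B had a mean of 0 CPM in Ha, 88.8 in Hb, 0.028 in La and 51.1 in Lb, opposite to PLAGL1. On the other side, at 67816 bp, SF3B5 had mean CPM of 18.0, 17.1, 15.9 and 21.9. Near MEST, TSGA13 had mean CPM of 0.013, 30.4, 0.040 and 21.9 in Ha, Hb, La and Lb. CEP41, the other neighbour of MEST, rose by 1.26 on the log2 scale in HZ (edgeR adjusted p = 0.000334) and by 2.04 in LC (edgeR adjusted p = 3.12e-06). The HZ call of CEP41 was lost with upper-quartile scaling (0.95) and by limma on FPKM with 1 (0.62) or 0.1 (0.75) added. Near DIRAS3, WLS fell by 2.37 in HZ (edgeR adjusted p = 0.000205) and by 1.55 in LC (edgeR adjusted p = 4.52e-05) on the log2 scale. GNG12, beyond DIRAS3, fell by 1.65 in HZ (edgeR adjusted p = 0.00119) and had a log2 fold change of -1.0012 in LC. The LC call of GNG12 was lost by DESeq2 (-0.97), with RLE scaling (-0.97), with no filter (-0.999) and without La3 (-0.92) or Lb3 (-0.86). SRC, near NNAT, fell by 1.28 on the log2 scale in HZ (edgeR adjusted p = 0.000641), and its interaction of 0.98 (edgeR adjusted p = 0.0266) was under the size threshold. DDC, 9143 bp from GRB10, fell by 1.38 in LC (edgeR adjusted p = 0.0107), a call lost by limma on log2(FPKM + 1) (-0.38) and without La2 (-1.24, edgeR adjusted p = 0.0512, range over alternatives 0.00167 to 0.0512), and its interaction of -1.70 did not pass (edgeR adjusted p = 0.211). The neighbours BEGAIN of DLK1, LOC100522375 and LOC110261077 of PEG3 and COBL of GRB10 were not called in either breed, and CTNNBL1 near NNAT and LOC110259222 near CDKN1C were too low to be tested with age.

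Relatives in sequence of the imprinted growth genes, which are not imprinted themselves as far as is known, gave 3 calls of 8 tested in HZ and 1 of 7 in LC, all lower at 120 days. Their median log2 fold change was -0.69 in HZ and -0.48 in LC. Over all coding genes tested, 51.4% were called in HZ and 47.6% in LC, and 23.2% and 20.1% were called lower. GRB14, an adaptor like GRB10, fell by 1.18 on the log2 scale in HZ (edgeR adjusted p = 0.000725), with an interaction of 0.43 (edgeR adjusted p = 0.251). GRB7, also of that family, was called lower in HZ, from 0.858 to 0.046 mean CPM, a call lost by limma on log2(FPKM + 1). DIRAS2, a relative of DIRAS3, was at 17.0, 2.34, 43.5 and 18.6 mean CPM in Ha, Hb, La and Lb. It fell by 2.86 on the log2 scale in HZ (edgeR adjusted p = 0.000360) and by 1.21 in LC (edgeR adjusted p = 0.00100), where leaving out Lb1 gave -0.99. DIRAS2 was higher in LC at both ages, by 1.35 at 30 days (edgeR adjusted p = 0.00126) and by 3.05 at 120 days (edgeR adjusted p = 0.0116). The 120-day call of DIRAS2 was lost without Hb3 (2.97) or Lb2 (2.87) and with the replicate block (3.07), with adjusted p up to 0.0546 over the alternatives. The cyclin-dependent kinase inhibitors CDKN1A and CDKN1B, the PLAGL1 relatives PLAG1 and PLAGL2, and DIRAS1 were not called in any comparison in which they were tested, and DLK2 was at most at 0.161 mean CPM and not tested.

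Of 16 genes whose products act with those of the imprinted growth genes, 5 were called higher and 6 lower in HZ, and 5 higher and 5 lower in LC. Their median log2 fold change was -0.80 in HZ and -0.65 in LC. Over all coding genes tested, 51.4% were called in HZ and 47.6% in LC. The receptor NOTCH2, which can bind ligands of the DLK1 type, fell by 1.25 in HZ and by 1.70 in LC on the log2 scale. NOTCH3 fell by 1.80 in HZ and by 1.01 in LC. The LC call of NOTCH3 was lost by DESeq2 (-0.98), with RLE scaling (-0.98) and without La1 (-0.97), La3 (-0.95), Lb1 (-0.88) or Lb3 (-0.96). On the pathway that GRB10 dampens, the insulin receptor INSR fell by 1.46 in LC, and the receptor substrate IRS1 fell by 2.14 in HZ and by 1.76 in LC. Among the cyclins and kinases that CDKN1C inhibits, CCND2 fell by 3.42 in HZ and by 3.15 in LC, and CDK4 fell by 1.23 in HZ. CCND1 fell by 1.01 in HZ, a call lost by DESeq2 (-0.97), with RLE scaling (-0.96) and without Ha1 (-0.86), Ha2 (-0.96), Hb1 (-0.90) or Hb3 (-0.93). None of the partners called in a single breed passed the interaction test, with values of -0.63 for INSR (edgeR adjusted p = 0.176), 0.29 for CDK4 (edgeR adjusted p = 0.445) and 0.87 for CCND1 (edgeR adjusted p = 0.0848).

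The cyclins of the later cell cycle step moved the other way. CCNE1 rose by 3.00 in HZ and by 3.38 in LC on the log2 scale, and CCNE2 by 1.43 and 1.34. The CCNE2 calls were lost by limma on FPKM with 1 and 0.1 added, at 0.65 and 0.89 in HZ and 0.67 and 0.99 in LC. CDK2 rose by 1.08 in HZ and by 1.03 in LC, calls that upper-quartile scaling ended in both breeds (0.76 in each). By limma with 1 and 0.1 added CDK2 was at 0.42 and 0.44 in HZ and at 0.58 and 0.63 in LC, and it was not called. The HZ call of CDK2 was also lost without Ha3 (0.97) or Hb1 (0.96), and the LC call without La3 (0.89), Lb1 (0.88) or Lb2 (0.999). The calcium pump gene ATP2A2, whose product neuronatin binds, rose by 2.31 in HZ and by 2.26 in LC. ADCYAP1R1, a target of PLAGL1 that encodes a peptide hormone receptor, rose by 2.40 in HZ and by 4.29 in LC. ADCYAP1R1 was also the 1 partner called between the breeds at 30 days, lower in La by a log2 difference of -1.58 (edgeR adjusted p = 0.0408). That call was lost in 9 alternatives, among them those without Ha1 (-1.53), Ha2 (-1.10), La1 (-1.57), La2 (-1.54) or La3 (-1.58), with adjusted p from 0.000655 to 0.122. NOTCH1, IGF1R, IRS2 and SIAH1 were not called with age in either breed.

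Markers of the cell types of the testis moved with age in the same libraries, and their part in the changes of the imprinted growth genes was not tested. Of 8 Sertoli cell markers, 4 were called lower in each breed, and all 8 had negative log2 fold changes in both. Their summed FPKM in the libraries, in order of number, was 782, 751 and 973 in Ha, 181, 288 and 216 in Hb, 1508, 1770.0 and 1632 in La and 311, 385 and 371 in Lb, with INHA the most abundant over the 12 libraries. The gene that leads each list below is named in the same sense. Of 7 Leydig cell markers, led by INSL3, 4 were called lower in HZ and 5 in LC, and all 7 were negative in both. These summed to 5487, 5009 and 4883 FPKM in Ha, 7771, 5341 and 6281 in La and 2708, 4057 and 1712 in Lb, beside the Hb values given above. The Leydig sum was thus lower in every 120-day library than in any 30-day library. Of 10 peritubular and stromal markers, led by COL3A1, 8 were called lower in HZ, while in LC 5 were called lower and 1 higher. Of these markers 9 had negative log2 fold changes in HZ and 7 in LC. Their summed FPKM was 977, 950 and 978 in Ha, 102, 101 and 66.5 in Hb, 1341, 1224 and 1512 in La and 530.1, 516 and 562 in Lb.

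Of 5 endothelial markers, led by VWF, 5 were called lower in HZ and 3 in LC, and all 5 had negative log2 fold changes in both. They summed to 93.7, 94.6 and 84.4 FPKM in Ha, 13.9, 26.7 and 15.7 in Hb, 98.0, 78.3 and 91.0 in La and 28.2, 45.7 and 28.6 in Lb. Of 5 macrophage markers, led by CSF1R, 5 were called lower in HZ and 4 in LC, and all 5 were negative in both. Their summed FPKM was 32.6 to 40.3 in Ha, 2.24 to 4.56 in Hb, 33.0 to 38.3 in La and 5.91 to 9.91 in Lb. The somatic lists therefore had medians on the same side as the imprinted growth genes, at -1.12 and -0.97 for Sertoli, -2.41 and -1.19 for Leydig, -2.83 and -1.14 for stromal, -2.31 and -1.25 for endothelial and -3.01 and -1.80 for macrophage markers in HZ and LC. Between the breeds at 30 days, where PEG10 was called, 3 of the 8 Sertoli markers (AMH, FSHR and INHA) and 1 of the 7 Leydig markers (HSD17B3) were called higher in La. At the same age 4 of the 8 spermatocyte markers (SYCP1, SYCP2, HORMAD1 and PIWIL1) and 1 of 10 spermatogonial markers tested (DAZL) were called lower in La, with a median of -0.89 over the spermatocyte markers. Their part in the difference of PEG10 was not tested. Between the breeds at 120 days, where 0 imprinted growth genes were called, 5 of the 10 stromal markers, 1 endothelial marker (PECAM1), 1 macrophage marker (AIF1) and 1 skeletal muscle marker (ACTA1) were called higher in Lb, and 1 spermatid marker (AKAP4) was called lower. The Leydig markers had a median of 1.95 in that comparison, with 0 of 7 called by edgeR and 3 (CYP11A1, LHCGR and HSD17B3) at an unadjusted p under 0.05.

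Germ cell markers of the later stages moved the other way. All 8 spermatocyte markers rose in both breeds, with medians of 3.58 in HZ and 4.26 in LC. Led by PIWIL1, they summed to 10.5, 10.96 and 6.50 FPKM in Ha, 151, 157 and 134 in Hb, 5.40, 4.76 and 4.41 in La and 116, 110.3 and 124 in Lb. Of 10 spermatid markers, 9 were tested with age and all 9 rose in both breeds. Led by PRM1, these summed to 5.72, 7.02 and 6.73 FPKM in Ha, 5280 to 7667 in Hb, 4.53 to 10.8 in La and 3342 to 3909 in Lb. The Hb libraries were all above the Lb libraries in this sum. Of 11 spermatogonial markers, 3 were called higher and 6 lower in HZ (median -1.01), and 4 higher and 5 lower in LC (median -0.53). Led by DDX4, they summed to 59.5 to 76.0 FPKM in Ha, 173 to 182 in Hb, 40.6 to 43.9 in La and 139.8 to 162 in Lb.

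Markers of tissues outside the testis were not all low. Mean FPKM reached 24.55 for MRAP in La, 23.26 for LEP in Hb and 13.48 for ACTA1 in Lb. Of the adrenal-like markers MC2R and MRAP, MRAP was tested and fell in both breeds, and the pair summed to 16.7 FPKM in Ha, 1.82 in Hb, 24.6 in La and 4.74 in Lb. Of 4 adipose markers, LEP rose in both breeds, and the list summed to 0.663, 23.4, 0.677 and 18.8 FPKM in Ha, Hb, La and Lb, nearly all from LEP at 120 days. Of 3 tested skeletal muscle markers, 1 was called higher and 2 lower in HZ, and 1 higher and 1 lower in LC. That list summed to 3.94, 3.13, 4.39 and 14.2 FPKM in Ha, Hb, La and Lb. The 3 epididymal markers measured summed to at most 0.58 FPKM in any library and none was called by edgeR, with 1 tested in LC and 0 in HZ, and 0 with an unadjusted p under 0.05. No marker of any list was at 0 in all 12 libraries.

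The coding genes with the pattern most like each imprinted growth gene were found by the root mean square difference of centred log2 CPM over the 12 libraries, among 15132 genes. GRB10 had the closest match, ADGRL3 at 0.12, followed by KCTD15 at 0.17, where the median over all genes was 1.04. MEST was matched by CCNI at 0.16 and RASGEF1A at 0.18, with a median of 0.79. For PEG3 the nearest were COQ2 and GPRC5B, both at 0.18 (median 0.71), and for CDKN1C they were CCDC28A at 0.21 and TPRA1 at 0.23 (median 0.75). PLAGL1 was nearest to IL18RAP and RGS10, both at 0.24 (median 1.22), and PEG10 to TRIM71 at 0.25 and WDR49 at 0.27 (median 0.92). DIRAS3 was nearest to B3GAT2 at 0.26 and TRIM15 at 0.32 (median 0.88). For DLK1 the nearest were NRSN1 and DBX2, both at 0.29 (median 1.28). NNAT had the most distant matches, COCH at 0.36 and TP53I3 at 0.45, beside a median of 1.46. None of these genes was another of the 9.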

How the data were processed

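Testis RNA was sequenced by the authors from rRNA-depleted, strand-specific libraries, with fastp 0.18.0, Bowtie2 2.2.8 for removing rRNA, HISAT2 2.1.0 and StringTie 1.3.4 on the pig assembly Sscrofa11.1. The authors deposited estimated counts per coding gene and per lncRNA, from a counting tool not given in the sources used here, and the deposited FPKM values are scaled by transcript length and library by the authors. The deposited annotation gave lncRNA positions, and RefSeq gave gene positions.

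Here the estimated counts, made whole by rounding, were tested with edgeR 4.0.16 (R 4.3.3) by the quasi-likelihood test, after filterByExpr with a minimum count of 10 and TMM scaling, with Benjamini-Hochberg adjustment over all genes tested. Each comparison used its 6 libraries, and the interaction of breed and age all 12. A call needed an adjusted p under 0.05 and a log2 fold change beyond 1 in size. The standard error was the log2 fold change over the square root of F.

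Alternatives were DESeq2 1.42.0, RLE and upper-quartile scaling, no filter, 10 counts in every library of a group, limma 3.58.1 on log2(FPKM + 1) and log2(FPKM + 0.1), 1 fit of all libraries, the replicate number as a block, and leaving out each library. For lncRNAs, library sizes of the coding table were also tried.

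Named genes were the 9 imprinted growth genes, imprinted genes of their domains, the 2 most changed others called in each direction in each comparison of age, all relatives, called partners, nearest coding neighbours, lncRNAs within 10 kb, MEG3 and the 2 genes most alike in pattern. Markers named between breeds were picked after their values were seen. The members and lists were chosen with earlier results of these data known. CYP11B1 and DEFB1 were not used here.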

Additional observations from a re-analysis of the deposited data

Results flagged for a closer look

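Among the imprinted growth genes, the genes of their domains, their relatives and partners, the change with age differed between HZ and LC for 4 by the test of the interaction of breed and age, which called 5.14% of the 17332 coding genes tested. Those tested were 9 imprinted growth genes, 7 genes of their domains, 8 relatives and 16 partners, with 1, 2, 1 and 0 called. In the same test 5 of 10 stromal markers were called higher and 2 of 10 spermatid markers lower, with the other marker lists given above. The part of the markers in these 4 calls was not tested. The interaction was -1.02 for MEST on the log2 scale, with mean CPM of 20.3, 38.3, 26.8 and 24.9 in Ha, Hb, La and Lb (edgeR adjusted p = 0.0350, range over alternatives 0.00205 to 0.103).

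The value was 1.64 for DIRAS2 (edgeR adjusted p = 0.0372), a relative of DIRAS3, and the call was lost in 10 of 18 alternatives, with values from 1.37 to 2.11 and adjusted p from 0.00403 to 0.0809. The libraries whose removal ended it were Ha1 (1.78), Ha2 (1.71), Ha3 (1.53), Hb3 (1.61), La1 (1.66), La2 (1.68), La3 (1.69), Lb2 (1.45) and Lb3 (1.61).

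KCNQ1 had an interaction of 1.32 (edgeR adjusted p = 0.0216), lost without Ha1 (1.31), La2 (1.29) or La3 (1.33), with adjusted p from 0.000512 to 0.0542.

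SLC22A18 had an interaction of 3.75 (edgeR adjusted p = 0.0158), which passed in all 18 alternatives, from 3.34 to 4.47. Its mean CPM was 3.82 in Ha and 0.523, 0.262 and 0.492 in Hb, La and Lb. The interaction thus restates the high level in Ha, and the change with age in LC was too low to be tested.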

How the results depend on the processing

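The imprinted growth genes called numbered 4 to 6 in HZ and 3 to 5 in LC with age over the alternatives, and the 4 HZ calls of PEG10, PLAGL1, NNAT and GRB10 and the 3 LC calls of DLK1, PLAGL1 and GRB10 passed in all 15. Of the log2 fold changes of named genes under alternatives, 1547 kept direction and side of the threshold, 133 lost the call, 7 gained it and 26 changed sign. The cause of the changes under alternatives was not tested.

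Between the breeds at 30 days, limma on log2(FPKM + 0.1) called 2 imprinted growth genes (1 with edgeR). For the interaction, upper-quartile scaling called 0 (1 with TMM), and leaving out 1 library gave 0 to 1. Neighbouring lncRNAs called in HZ were 0 to 1 on leaving out 1 library, and in LC, where 1 was called, there were 0 by DESeq2, 0 with library sizes of the coding table, 0 with the replicate block and 0 to 1 on leaving out 1 library. Over all coding genes, limma on log2(FPKM + 1) called 507 between the breeds at 30 days (1192 with edgeR). At 120 days edgeR called 628, DESeq2 1224, the fit of 12 libraries 1258, and leaving out 1 library gave 97 without Lb2 to 1029 without Hb2. For the interaction edgeR called 890, DESeq2 1378, and leaving out 1 library gave 437 without Ha1 to 1242 without Hb2.

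With the replicate number as a block, edgeR called 8430 coding genes in HZ, 7770 in LC, 1030 between breeds at 30 days, 154 at 120 days and 672 for the interaction. Same-numbered libraries correlated weakly in their deviations from the group means, at -0.022 to 0.053. Whether the numbers pair the libraries is not given in the sources used here, and these correlations cannot settle it. In the block fit DIRAS3 lost its HZ call (-1.20, edgeR adjusted p = 0.0972, range over alternatives 0.00290 to 0.155).

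Signs changed only in differences that had not passed the test. For LC with age, PEG3 was 0.11 without La2, 0.03 without Lb3 and, on leaving out 1 library, at lowest -0.30 without Lb1, while limma on log2(FPKM + 0.1) gave -0.38. Between breeds at 30 days, PEG3 ran from -0.38 without La2 to 0.017 without La3, and CDKN1C from -0.32 without La2 to 0.15 without La1. MSTRG.22766.1 was 0.053 with coding-table library sizes, and ran from -0.27 without La1 to 0.12 without La3.

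At 120 days between breeds, limma on log2(FPKM + 0.1) gave DLK1 0.12 and PLAGL1 0.020. PLAGL1 was 0.32 without Hb2, 0.09 without Lb1 and at lowest -0.36 without Hb1. On leaving out 1 library, PEG3 ran from -0.021 without Lb1 to 0.41 without Hb2, GRB10 from -0.014 without Hb2 to 0.33 without Hb3 (0.39 by limma on log2(FPKM + 0.1)), and LOC110257546 from -0.14 without Lb3 to 0.61 without Lb1.

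The interaction of GRB10 was 0.043 with the upper quartile. It was 0.06 without Ha1, 0.08 without Ha2, 0.13 without Hb1, 0.16 without Hb3, 0.08 without La2, 0.02 without La3 and 0.10 without Lb3, and at lowest -0.25 without Hb2. That of DIRAS3 was -0.10 without Ha3, -0.03 without Hb2, -0.01 without La1, -0.05 without La3 and -0.15 without Lb2, and at highest 0.58 without La2.

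Leave-one-out fits and the block for lncRNAs, and all alternatives for single lncRNAs, for genes other than the 9 and for the counts over all genes, were chosen after seeing the data. Each group had 3 libraries, and DIRAS3, NNAT, CDKN1C and DLK1 had few counts. The promoter motif search was not run.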
